A study of Mus musculus with 8 samples.

Results

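Amacrine cells are the inhibitory interneurons of the inner retina, and a share of them, the displaced amacrine cells, sits in the ganglion cell layer beside the retinal ganglion cells (RGCs). They release GABA or glycine, and smaller sets add acetylcholine or dopamine. Their identity rests on transcription factors such as Pax6 and the AP-2 proteins. EZH2 is the methyltransferase of Polycomb repressive complex 2, which places trimethyl marks on lysine 27 of histone H3 and keeps many developmental and cell-type genes silent, often at promoters rich in CG dinucleotides.

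Of the series, 10 genes were followed, chosen by name for known roles in amacrine cells. They were the transcription factors Tfap2a, Tfap2b and Pax6, the GABA enzymes Gad1 and Gad2, the glycine transporter Slc6a9, the vesicular GABA and glycine transporter Slc32a1, the acetylcholine enzyme Chat, the dopamine enzyme Th and the calcium-binding protein Calb2 (calretinin). They are 10 of 21887 protein-coding genes. Every peak that touched a gene or the 10000 bp on either side of it was taken, and peaks of the 8 libraries that overlapped by at least 1 bp were merged. This gave 107 of the 189914 merged regions of the series, of which 48 (44.9%) had a peak in all 8 libraries and 18 in 1 library. Over all regions, 36.6% had a peak in all 8.

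The data are ATAC-seq peak lists. ATAC-seq uses a transposase to cut open chromatin, so a peak marks a stretch of accessible DNA. Adult C57BL/6J mice of both sexes, 6 to 10 weeks old, had received an intravitreal AAV2 carrying GFP (3 libraries), Ezh2 (3 libraries) or Ezh2-Y726D, the catalytically inactive form (2 libraries). All 3 groups had the optic nerve crushed 2 weeks after the virus, so no group is uninjured, and 50000 live CD90.2-positive cells per library were sorted 3 days later. CD90.2 (Thy1) is carried by RGCs and also by T cells, and the promoter that drives the virus is not given in the sources used here. The libraries are bulk samples in which more cells of a type and more open DNA per cell cannot be told apart. A peak at any of the 10 genes therefore cannot be assigned to amacrine cells, RGCs or other sorted cells. The labels do not say whether the libraries of a group came from separate animals, so p-values measure the spread between these libraries, which may be technical.

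The lists held 112939 to 135895 peaks. Each peak carries a fold, the summit pileup of reads over the local background, and a -log10 p. From this pair of values the pileup and the background came out for every peak in all 8 lists, within a relative tolerance of 0.0001. The window and the reads from which the peak caller took the background are not given in the sources used here. It may therefore include reads of the peak itself. The lowest background in a list, a stand-in for its depth, was 2.69 to 3.74 reads in GFP, 3.09 to 3.59 in Ezh2, with 2.39 and 3.12 in Ezh2-Y726D. Pileups and backgrounds are given below as multiples of this lowest background. The RGC list (10 genes) had a peak at all 10 genes in every library. Peaks at 10 microglial genes numbered 41 to 53 in GFP and Ezh2 but 27 and 29 in Ezh2-Y726D, and peaks at 10 T-cell genes numbered 36 to 58 against 23 and 23.

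The starts of the 10 genes differed in whether they carried a peak at all. RefSeq (GRCm38.p6) lists 13 starts for 9 of the genes and none for Calb2. Of these, 8 starts, at Pax6 (2), Tfap2a, Gad1, Gad2, Slc32a1 and Slc6a9 (2), had a peak in all 8 libraries. The starts of Chat and Th, the second start of Tfap2a and the third of Slc6a9 had none in any library. The Tfap2b start had a peak in 2 of 8, Ezh2 replicate 2 and Ezh2-Y726D replicate 2. Counted by gene, with a peak at any of its listed starts, Pax6, Tfap2a, Gad1, Gad2, Slc32a1 and Slc6a9 had one in every library. Chat and Th had one in none. Counted in this way, of 17492 protein-coding genes with a listed start, 60.8% had a peak there in every library and 32.5% in none. A start counted when a peak touched the window from 250 bases before it to 50 after it. At the first Slc6a9 start the peak only reached this window, with its summit 1151 to 1176 bp inside the start. No start was gained or lost between groups.

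The open starts are shown because the results below turn on the regions at and around them. Each runs 5′ to 3′ from 250 bases before the start to 50 after it, from RefSeq on GRCm38.p6, with every CG in capitals. The windows are chr2:105668646-105668945 and chr2:105682213-105682512 on the plus strand for Pax6, chr13:40733746-40734045 on the minus strand for Tfap2a, chr2:70561879-70562178 on the plus strand for Gad1, chr2:22622077-22622376 on the plus strand for Gad2, chr2:158610508-158610807 on the plus strand for Slc32a1, and chr4:117835008-117835307 and chr4:117849100-117849399 on the plus strand for Slc6a9.
Pax6 start 1: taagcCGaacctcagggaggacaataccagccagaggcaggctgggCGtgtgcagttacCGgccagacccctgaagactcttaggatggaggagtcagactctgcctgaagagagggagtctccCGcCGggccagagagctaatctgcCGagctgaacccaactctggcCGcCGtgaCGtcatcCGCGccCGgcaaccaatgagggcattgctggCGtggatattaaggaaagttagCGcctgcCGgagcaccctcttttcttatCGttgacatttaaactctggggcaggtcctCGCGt
Pax6 start 2: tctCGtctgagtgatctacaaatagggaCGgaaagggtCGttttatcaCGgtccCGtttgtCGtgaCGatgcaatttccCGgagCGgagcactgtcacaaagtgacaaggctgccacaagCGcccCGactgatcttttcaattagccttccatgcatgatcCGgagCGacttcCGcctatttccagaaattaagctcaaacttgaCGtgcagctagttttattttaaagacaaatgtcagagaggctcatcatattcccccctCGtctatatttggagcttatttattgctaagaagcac
Tfap2a start 1: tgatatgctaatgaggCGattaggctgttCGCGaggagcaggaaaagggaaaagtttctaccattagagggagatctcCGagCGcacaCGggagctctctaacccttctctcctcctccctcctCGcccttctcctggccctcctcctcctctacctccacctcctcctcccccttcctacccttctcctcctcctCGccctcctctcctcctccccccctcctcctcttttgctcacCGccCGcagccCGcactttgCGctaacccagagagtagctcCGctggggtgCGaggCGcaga
Gad1 start 1: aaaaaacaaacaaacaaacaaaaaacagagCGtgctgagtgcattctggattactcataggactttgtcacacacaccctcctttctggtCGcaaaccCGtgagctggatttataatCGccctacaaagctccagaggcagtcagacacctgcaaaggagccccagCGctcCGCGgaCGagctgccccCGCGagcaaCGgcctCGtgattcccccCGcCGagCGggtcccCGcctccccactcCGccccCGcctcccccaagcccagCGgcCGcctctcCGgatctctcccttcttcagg
Gad2 start 1: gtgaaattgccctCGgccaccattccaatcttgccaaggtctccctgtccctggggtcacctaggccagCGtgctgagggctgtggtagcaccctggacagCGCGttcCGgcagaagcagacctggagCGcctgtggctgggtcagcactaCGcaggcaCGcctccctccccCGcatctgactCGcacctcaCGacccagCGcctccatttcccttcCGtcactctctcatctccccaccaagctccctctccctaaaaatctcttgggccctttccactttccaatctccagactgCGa
Slc32a1 start 1: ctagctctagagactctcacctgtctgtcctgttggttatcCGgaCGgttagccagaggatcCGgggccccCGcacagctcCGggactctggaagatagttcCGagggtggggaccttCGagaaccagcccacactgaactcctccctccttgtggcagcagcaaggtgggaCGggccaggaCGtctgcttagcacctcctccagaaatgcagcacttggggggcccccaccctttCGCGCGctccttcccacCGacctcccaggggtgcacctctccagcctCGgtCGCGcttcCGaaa
Slc6a9 start 1: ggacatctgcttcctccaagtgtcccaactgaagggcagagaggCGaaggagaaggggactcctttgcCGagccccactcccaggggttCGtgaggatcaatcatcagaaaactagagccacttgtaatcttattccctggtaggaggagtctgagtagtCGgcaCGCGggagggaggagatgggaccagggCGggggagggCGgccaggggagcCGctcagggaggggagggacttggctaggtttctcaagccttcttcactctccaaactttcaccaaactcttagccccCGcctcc
Slc6a9 start 2: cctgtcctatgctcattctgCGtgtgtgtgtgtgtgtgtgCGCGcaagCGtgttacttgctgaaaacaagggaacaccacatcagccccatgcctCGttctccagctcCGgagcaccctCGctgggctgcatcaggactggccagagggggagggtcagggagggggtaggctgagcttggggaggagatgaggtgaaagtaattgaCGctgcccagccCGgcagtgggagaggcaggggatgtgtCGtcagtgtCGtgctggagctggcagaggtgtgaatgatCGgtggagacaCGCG
These 8 windows held 10 to 21 CG dinucleotides, with 21 at Gad1 and 18 at Pax6 start 1. The median of 21263 protein-coding promoters of the same length was 13, and the quartiles were 4 and 24. An AP-2 motif, GCCNNNGGC read on both strands, was found at Pax6 start 1 (1 match) and Gad2 (2 matches) and in 19.9% of all promoters. A CCAAT box lay at Pax6 start 1, at Gad2 and at Chat, against 38.2% of promoters. Of the 13 starts, only Th held the AP-1 motif TGANTCA (6.99% of promoters) and only Chat the E-box CAGCTG (15.6%). These are matches of letters, not measured binding.

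The number of peaks overlapped between groups at 9 of the 10 genes. Summed over the 10 genes, there were 64, 63 and 72 peaks in the GFP libraries, 66, 75 and 76 in Ezh2, with 68 and 78 in Ezh2-Y726D. Chat was the single gene whose numbers did not overlap. It had 5, 6 and 5 peaks in GFP, 5, 5 and 5 in Ezh2, with 7 and 7 in Ezh2-Y726D. The exact permutation test gave p = 0.2 for Ezh2-Y726D against GFP and p = 0.1 for Ezh2 against Ezh2-Y726D (two-sided; 0.1 is the smallest p that 3 or 2 libraries against 3 can give). Of all genes with a peak, 20.4% had numbers that did not overlap between Ezh2-Y726D and GFP, 29.0% between Ezh2 and Ezh2-Y726D and 10.6% between Ezh2 and GFP, so the 1, 1 and 0 genes of 10 found here do not exceed the background. Without Ezh2-Y726D replicate 1, which leaves a single library in that group, 6 genes did not overlap between Ezh2-Y726D and GFP, and without replicate 2 the number for Ezh2 against Ezh2-Y726D was 7.

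Pax6, the master regulator of eye development that amacrine cells keep expressing, had 11, 10 and 12 peaks in GFP, 12, 16 and 12 in Ezh2, with 11 and 14 in Ezh2-Y726D. Tfap2a had 10, 8 and 7, then 10, 9 and 10, then 8 and 10. Tfap2b had 4, 4 and 8, then 7, 10 and 8, then 6 and 9. All these ranges overlapped. Among the transmitter genes, Gad1 had 8, 7 and 8 peaks in GFP, 6, 7 and 6 in Ezh2, with 8 and 6 in Ezh2-Y726D. Gad2 ranged most, from 3 peaks to 10, with the 10 in Ezh2 replicate 3. Slc6a9 had 10 to 12 peaks, Slc32a1 4 to 6, Calb2 4 to 5 and Th 3 to 5, with overlap in every comparison.

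**Figure D1:**
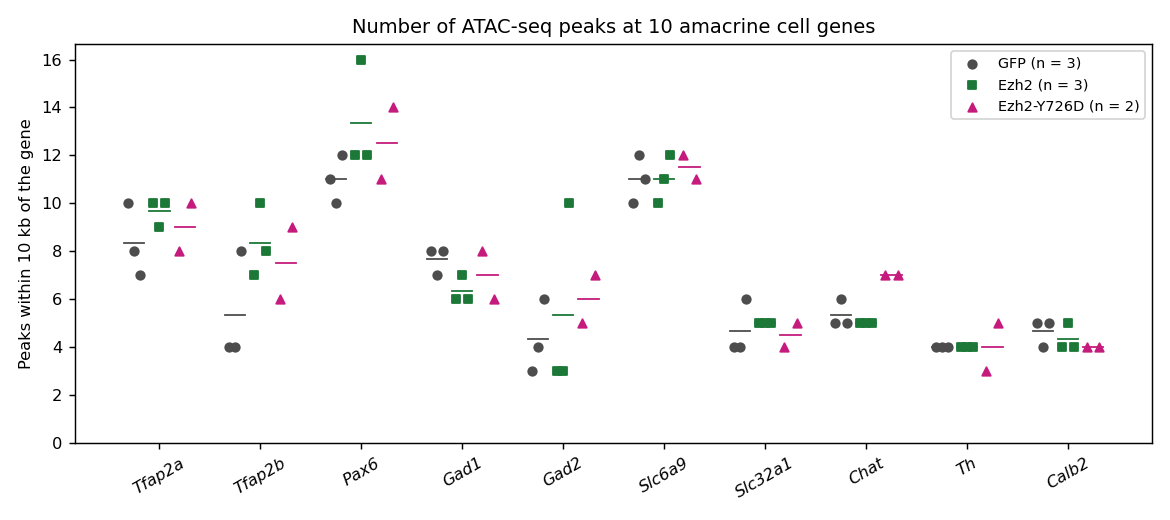
Number of peaks within 10 kb of each gene (y axis) in each library, with a line at the mean of each group. The 2 Ezh2-Y726D libraries lie above the other 6 at Chat alone, at 7 peaks each.

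Presence or absence of single regions set few of them apart. Between Ezh2 and GFP, 0 of 107 regions were gained (a peak in every library of the first group and in none of the other) and 0 were lost, against 2.72% and 1.68% of all regions. Ezh2-Y726D gained 2 regions over GFP (background 4.77%), one in Gad1 (chr2:70581463-70582136, 19670 bp inside the start) and one in Chat (chr14:32437412-32437635, 28386 bp inside). It lost 1 region (background 4.72%), which lies 2019 bp before the first Pax6 start (chr2:105666668-105667086). Ezh2 gained none over Ezh2-Y726D (background 8.96%) and lost 3 (6.14%): the same Gad1 and Chat regions and one in Gad2 (chr2:22670378-22670749). These shares do not stand above the background. With Ezh2-Y726D replicate 1 left out the regions gained or lost against GFP numbered 14, and with replicate 2 left out 9, since 1 library then decides for its group.

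The gained and lost regions were weak peaks. The Gad1 region had a fold of 2.59 and 3.15 in the Ezh2-Y726D libraries, on pileups of 14 and 23 reads. The Chat region had 4.43 and 4.12, on 14 and 16 reads. The lost Pax6 region had a fold of 1.85, 1.85 and 1.74 in GFP and lay at percentiles 0.0423, 0.0345 and 0.0269 of the lists, at their bottom. Its pileups of 54, 49 and 64 reads were high, on backgrounds of 28.7, 26.1 and 36.3 reads.

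Of the measures compared at these genes, local background differed most between groups. The local background was higher in Ezh2-Y726D than in GFP at 35 of the 48 regions tested (72.9%) and lower at 1 (limma with Benjamini-Hochberg adjustment over 69493 regions), where 16.1% and 17.8% of all regions were called. In Ezh2 it was lower than in Ezh2-Y726D at 39 of 48 (81.3%) and higher at 1, against 20.0% and 20.0%. Between Ezh2 and GFP it was lower at 12 and higher at 1, against 8.63% and 7.83%. In each list, 35.9% to 40.0% of all peaks sat at the lowest background. The shares of all regions were not matched to these genes for the level of the background. The 3 comparisons share libraries. These fits use the rank of a region's background within its library, turned into a normal score, and were added after the fold results had been seen. Neighbouring regions share background reads, so the 35 regions are not 35 independent values, but they lie at all 10 genes. One of these calls carries no reads: the Calb2 region called higher in Ezh2 than in Ezh2-Y726D was at the lowest background in all 8 libraries.

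Pax6 had the highest median background of the 10 genes in 7 of the 8 libraries (Slc32a1 in Ezh2 replicate 3). At its first start the background was 8.94, 9.63 and 10.1 times the lowest in GFP, 8.13, 7.84 and 8.61 in Ezh2, with 15.8 and 14.7 in Ezh2-Y726D. The 3 groups did not overlap: Ezh2-Y726D was highest and Ezh2 lowest. In normal scores Ezh2-Y726D exceeded GFP by 0.85 ± 0.07 (SE, adjusted p = 0.00107), and Ezh2 lay below GFP by a difference of -0.26 ± 0.06 (adjusted p = 0.0343). All 8 Pax6 regions tested were higher in Ezh2-Y726D than in both other groups, and 3 of 8 were lower in Ezh2 than in GFP.

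The AP-2 genes moved in the same direction in Ezh2-Y726D. All 7 Tfap2a regions and both Tfap2b regions had a higher background in Ezh2-Y726D than in GFP. At the open Tfap2a start it was 5.49, 5.99 and 6.38 in GFP, 6.13, 5.74 and 6.74 in Ezh2, with 9.99 and 9.48 in Ezh2-Y726D, so GFP and Ezh2 overlapped and Ezh2-Y726D lay above both. The Tfap2b region 2984 bp before its start had 3.24, 3.42 and 3.54 in GFP, 2.83, 3.12 and 3.24 in Ezh2, with 5.90 and 5.87 in Ezh2-Y726D.

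The genes that make and load GABA followed. GAD67 (Gad1) and GAD65 (Gad2) form GABA from glutamate, and the Slc32a1 protein packs it into vesicles. All 5 Gad1 regions, both Gad2 regions and 3 of 4 Slc32a1 regions were higher in background in Ezh2-Y726D than in GFP, and the same numbers were lower in Ezh2 than in Ezh2-Y726D. At the Gad1 start the background was 4.87, 5.12 and 5.51 in GFP, 5.84, 5.57 and 6.24 in Ezh2, with 8.77 and 9.02 in Ezh2-Y726D. At the Gad2 start it was 3.39, 3.66 and 3.91, then 4.16, 4.12 and 4.45, then 6.16 and 6.40. At the Slc32a1 start it was 7.64, 7.94 and 8.09, then 7.17, 6.93 and 7.75, then 12.5 and 12. Ezh2-Y726D lay above every other library at all 3 starts. Ezh2 against GFP did not pass the test at any region of these 3 genes.

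Slc6a9, the GlyT1 transporter that marks glycinergic amacrine cells, differed in Ezh2. All 9 of its regions had a lower background in Ezh2 than in GFP. At its second start the background was 5.46, 5.99 and 6.32 in GFP, 3.68, 3.77 and 3.77 in Ezh2, with 8.80 and 8.41 in Ezh2-Y726D. The difference of Ezh2 from GFP was -0.59 ± 0.05 (SE, adjusted p = 0.00456). Against GFP, Ezh2-Y726D was higher at 3 of the 9 regions and lower at 1, the region 5330 bp before the first start. The peak that touches the window of the first start has its summit 1151 to 1176 bp inside the start. Its background was 6.06, 6.88 and 6.32 in GFP, 5.31, 5.16 and 5.18 in Ezh2, with 6.17 and 6.32 in Ezh2-Y726D, so Ezh2 alone stood apart there. Of the 12 regions with a lower background in Ezh2 than in GFP, 9 were at Slc6a9 and 3 at Pax6. The 1 higher region lay 7247 bp before the nearer Tfap2a start.

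**Figure D2:**
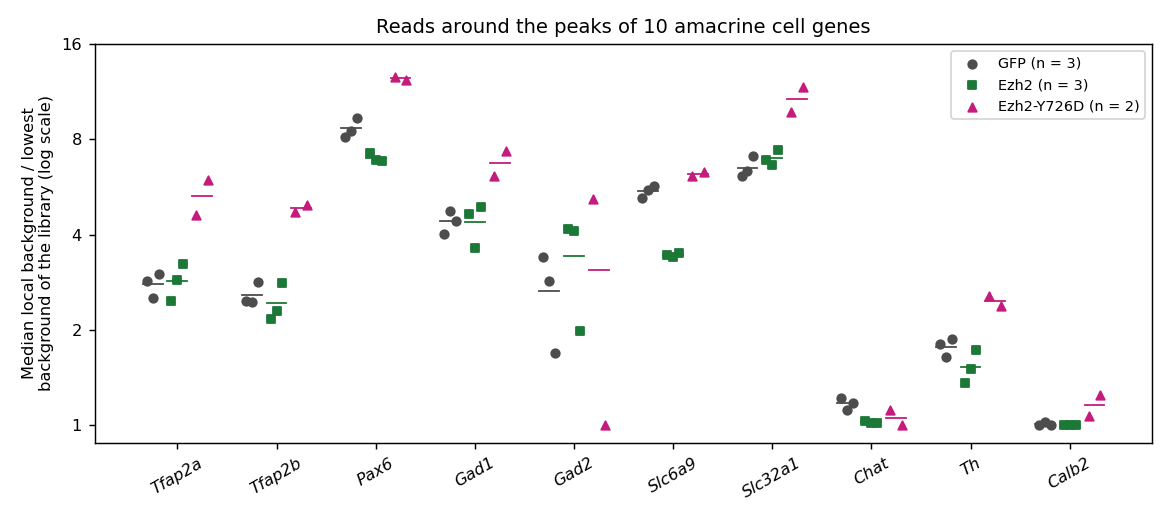
Median local background of the peaks of each gene, as a multiple of the library's lowest background (y axis, log scale), with a line at each group mean. The set of peaks behind a median differs between libraries. Ezh2-Y726D (triangles) lies above every GFP library at 8 genes and below at Chat, and the Ezh2 libraries at Slc6a9 sit at 3.41 to 3.51 against 5.23 to 5.71 in GFP.

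The enzyme genes of acetylcholine and dopamine, Chat and Th, and the calretinin gene had lower local backgrounds. Taken as the median over a gene's peaks, the background was 1.00 to 1.22 at Chat, 1.36 to 2.56 at Th and 1.00 to 1.25 at Calb2, against 6.86 to 12.6 at Pax6. By this median, Ezh2-Y726D did not overlap GFP at 9 of 10 genes, higher at 8 and lower at Chat, where 47.5% of all genes did not overlap. Gad2 overlapped, with a median of 5.20 in Ezh2-Y726D replicate 1 and of 1.00 in replicate 2. Ezh2 was below Ezh2-Y726D at 8 genes (57.0% of all genes did not overlap) and below GFP at 3, namely Pax6, Slc6a9 and Chat (30.2%). The median runs over the peaks each library had, and Chat had 7 in each Ezh2-Y726D library against 5 or 6 in GFP. Of the 4 Chat regions with a peak in all libraries, 2 were higher in background in Ezh2-Y726D than in GFP and 0 lower. For Ezh2 against GFP, 0 of the 4 were called. At the 9 such Slc6a9 regions the median difference of Ezh2-Y726D from GFP was -0.08 normal scores, with 4 of 9 above 0. At Calb2 the medians were near the lowest background, at 1.07 and 1.25 in Ezh2-Y726D against 1.00 to 1.02 in GFP.

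In normal scores the height of the peaks moved with the background, but by less. For Ezh2-Y726D against GFP the median difference was 0.34 by pileup and 0.62 by background. On log2 values over the lowest background the 2 medians lay closer, at 0.55 and 0.63, where those of all regions were 0.18 and 1.86e-06. Ranked by summit pileup, 16 of the 48 regions (33.3%) were higher in Ezh2-Y726D than in GFP and 1 lower, against 6.38% and 10.4% of all regions. Against Ezh2-Y726D, Ezh2 was lower at 20 of 48 (41.7%) and higher at 0, where the background shares were 9.79% and 12.1%. Before any test, 45 of the 48 differences were below 0. Between Ezh2 and GFP, 1 region was higher and 4 lower, against 3.14% and 4.51%. The 16 regions lay at 8 genes: 5 at Pax6, 3 at Gad1, 2 each at Tfap2a and Gad2, and 1 each at Tfap2b, Slc32a1, Chat and Calb2. Slc6a9 held the 1 lower region. The pileup counts rest on few libraries: without Ezh2-Y726D replicate 1 the calls fell to 1 higher against GFP and 4 lower in Ezh2, and without replicate 2 to 4 and 6. Without GFP replicate 1, 2 or 3 the calls of Ezh2-Y726D against GFP were 5, 6 and 9, and without Ezh2 replicate 1 the calls of Ezh2 against Ezh2-Y726D were 10. The 5 pileup calls of Ezh2 against GFP fell to 0 without GFP replicate 1 or 2 or Ezh2 replicate 1 or 3, to 1 without GFP replicate 3 and to 3 without Ezh2 replicate 2 or Ezh2-Y726D replicate 2. The background counts stayed between 32 and 37 for Ezh2-Y726D against GFP and between 39 and 41 for Ezh2 against Ezh2-Y726D whichever library was left out.

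At the Slc32a1 start the pileup was 23.1, 30.5 and 26.8 times the lowest background in GFP, 24.6, 24 and 25.4 in Ezh2, with 44.0 and 38.7 in Ezh2-Y726D. Ezh2-Y726D exceeded GFP by 0.44 ± 0.08 normal scores (SE, adjusted p = 0.0124). At the Gad2 start it was 16.3, 21.6 and 20.3, then 22, 21.3 and 23.7, then 33.5 and 30.7 (difference 0.42 ± 0.09, adjusted p = 0.0220). At the first Pax6 start it was 27.1, 33.9 and 29.2, then 29.4, 28.2 and 30.7, then 46.1 and 38.4 (0.37 ± 0.08, adjusted p = 0.0257). At each of these starts the Ezh2-Y726D libraries were above all other libraries, while GFP and Ezh2 overlapped. The Chat region 38632 bp inside the gene had 10.5, 10.1 and 13.4 in GFP, 12.6, 14.4 and 12.3 in Ezh2, with 21.8 and 23.1 in Ezh2-Y726D (0.77 ± 0.15, adjusted p = 0.0182).

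**Figure D3:**
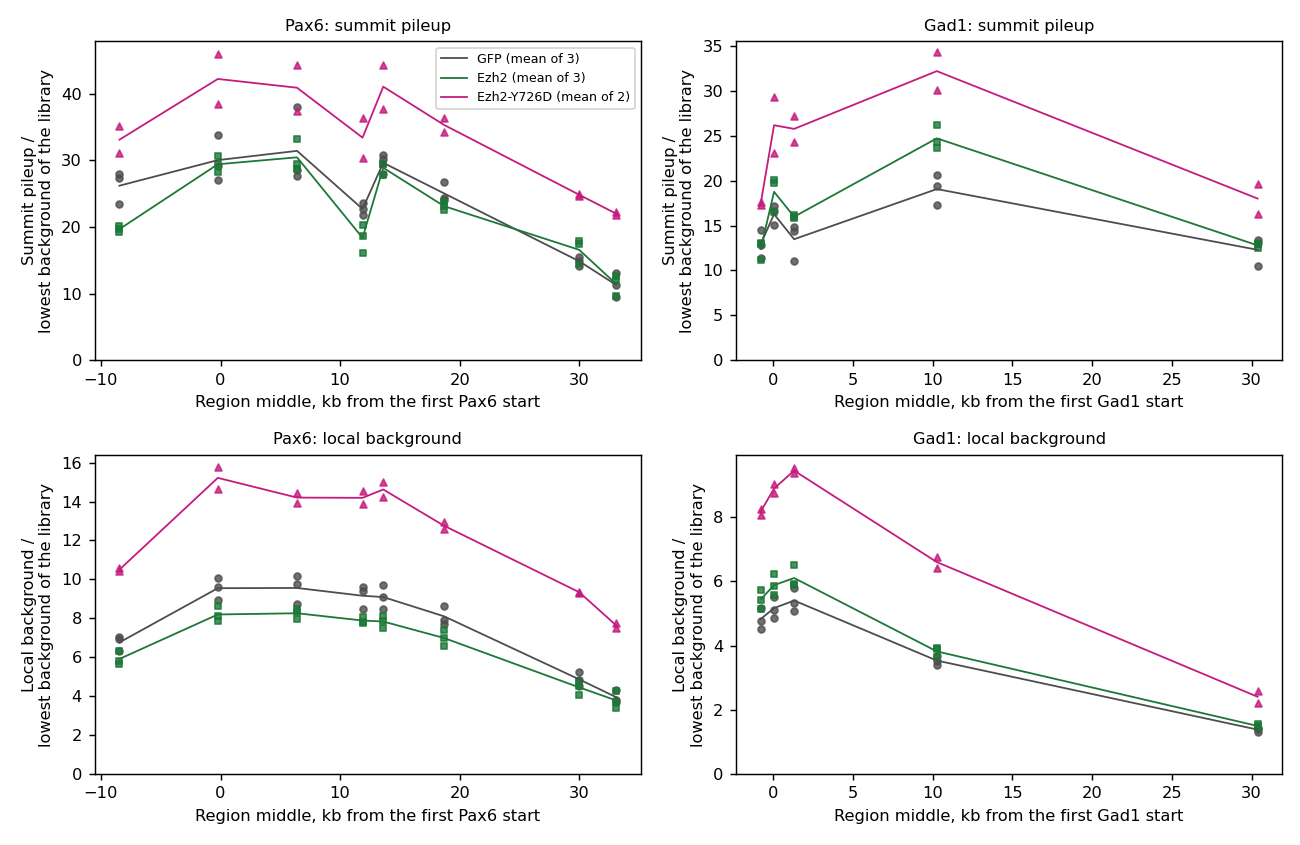
Summit pileup (top) and local background (bottom), as multiples of the library's lowest background, for the regions of Pax6 and Gad1 with a peak in all 8 libraries, by distance of the region's middle from the first start in kb. Points are libraries, and lines join group means only to guide the eye. The background of the 2 Ezh2-Y726D libraries lies above the other 6 at every region shown.

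Fold divides the first of these values by the second, with 1 read added to each. Ranked by fold, Ezh2 and Ezh2-Y726D changed order at both Pax6 starts, while at the first of them GFP and Ezh2-Y726D overlapped. At the first Pax6 start the fold was 2.96, 3.43 and 2.85 in GFP, 3.52, 3.50 and 3.48 in Ezh2, with 2.87 and 2.58 in Ezh2-Y726D, at percentiles 6.57, 12.2 and 6.26, then 17.5, 20.8 and 22.1, then 3.60 and 2.63 of the list. By fold Ezh2 was higher than Ezh2-Y726D by 0.83 ± 0.20 normal scores (limma, adjusted p = 0.0220). By pileup it was lower, with a difference of -0.38 ± 0.08 (adjusted p = 0.0203). The second Pax6 start behaved likewise, with a fold difference of 0.93 ± 0.18 (adjusted p = 0.00833) and a pileup difference of -0.35 ± 0.08 (adjusted p = 0.0215).

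By fold, 7 of the 48 regions (14.6%) were higher in Ezh2 than in Ezh2-Y726D and 2 (4.17%) lower, against 7.0% and 6.96% of all regions. The 7 were the 2 Pax6 starts, a Pax6 region 16432 bp inside the nearer start, 2 Tfap2a regions, 1 Gad1 region and 1 Slc6a9 region. Of these, 5 had a pileup difference below 0, and the other 2 had pileup differences of 0.04 (Tfap2a) and 0.19 (Slc6a9) that did not pass the test (adjusted p = 0.786 and 0.161). Without Ezh2-Y726D replicate 1 the fold calls fell to 2 higher and 1 lower, and without replicate 2 to 1 and 0. Ranked by -log10 p they were 1 higher and 2 lower. Between Ezh2-Y726D and GFP, 0 regions were higher (background 3.55%) and 1 was lower (4.65%). Between Ezh2 and GFP, 1 was higher (1.59%) and 1 lower (2.84%). The median difference of the 48 regions was 0.31 for Ezh2 against Ezh2-Y726D (0.02 over all regions), -0.19 for Ezh2-Y726D against GFP (-0.01) and 0.18 for Ezh2 against GFP (0.01).

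The region lower in Ezh2-Y726D than in GFP was in Tfap2a, 10675 bp inside the gene's nearer start (chr13:40722524-40723716), and it was the strongest Tfap2a peak by fold. Its fold was 8.67, 8.72 and 8.45 in GFP, 8.54, 9.43 and 8.07 in Ezh2, with 6.76 and 6.54 in Ezh2-Y726D, a difference from GFP of -0.80 ± 0.18 (adjusted p = 0.0246). Its pileup was 44.4, 47.7 and 44.4, then 44.6, 47.7 and 44.3, then 46.5 and 44.5, and gave a difference of 0.00 ± 0.10 (adjusted p = 0.998). Its background was 4.84, 5.14 and 5.02, then 4.94, 4.79 and 5.25, then 6.52 and 6.53. The summit was thus level across the 8 libraries and the local background was not. The call was lost without either of 2 GFP libraries (replicates 1 and 2) or either Ezh2-Y726D library.

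The region higher in Ezh2 than in GFP by fold overlapped the end of Slc6a9 and the neighbouring gene Ccdc24 (chr4:117869074-117870172). Its fold was 2.49, 2.47 and 2.28 in GFP, 3.07, 2.77 and 3.07 in Ezh2, with 2.53 and 2.41 in Ezh2-Y726D (0.71 ± 0.17 for Ezh2 against GFP, adjusted p = 0.0488). Its pileup was lower in Ezh2, at 13.2, 10.8 and 12.3 against 17.9, 18.6 and 16.1 in GFP (-0.47 ± 0.10, adjusted p = 0.0375), and its background fell further, from 6.99, 7.32 and 6.89 to 4.10, 3.71 and 3.80. The fold call was lost without any 1 of 7 libraries, all but Ezh2 replicate 2. The Slc6a9 region 7579 bp inside the nearest start (chr4:117862745-117863507) had the largest fold difference of Ezh2 from Ezh2-Y726D, 1.22 ± 0.20 (adjusted p = 0.00476). Its fold was 4.56, 4.87 and 5.40 in GFP, 6.62, 6.22 and 5.93 in Ezh2, with 4.48 and 3.64 in Ezh2-Y726D. The call was lost without Ezh2-Y726D replicate 2, where the difference was 0.92.

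At 2 Calb2 regions a fold call and a pileup call went the same way. The region 8922 bp beyond the higher-coordinate end of the gene (chr8:110177134-110178076) had a fold of 7.77, 9.42 and 8.02 in GFP, 5.62, 5.77 and 5.01 in Ezh2, with 8.26 and 8.92 in Ezh2-Y726D. Ezh2 was lower than GFP by fold (-0.996 ± 0.17, adjusted p = 0.0159) and by pileup (-0.84 ± 0.16, adjusted p = 0.0295). It was also lower than Ezh2-Y726D by both (adjusted p = 0.0140 and 0.0218). The pileup was 9.86, 13.0 and 9.90 in GFP, 7.11, 7.20 and 6.13 in Ezh2, with 11.3 and 13.4 in Ezh2-Y726D, on a background at or near the lowest in every library. The Ezh2 libraries lay below all 5 others. The fold call against GFP was lost without GFP replicate 2 or Ezh2 replicate 3. The pileup call against GFP was lost without GFP replicate 1, 2 or 3 or Ezh2 replicate 1 or 3. The fold call against Ezh2-Y726D was lost without either Ezh2-Y726D library. A second Calb2 region, inside the gene (chr8:110161896-110162749), was lower in Ezh2 than in Ezh2-Y726D by fold (-0.90 ± 0.21, adjusted p = 0.0193) and by pileup (-1.10 ± 0.21, adjusted p = 0.0117). Its pileups were 5.49, 5.40 and 4.46 in Ezh2, with 8.79 and 10.9 in Ezh2-Y726D. The fold call was lost without Ezh2 replicate 3 or Ezh2-Y726D replicate 2.

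**Figure D4:**
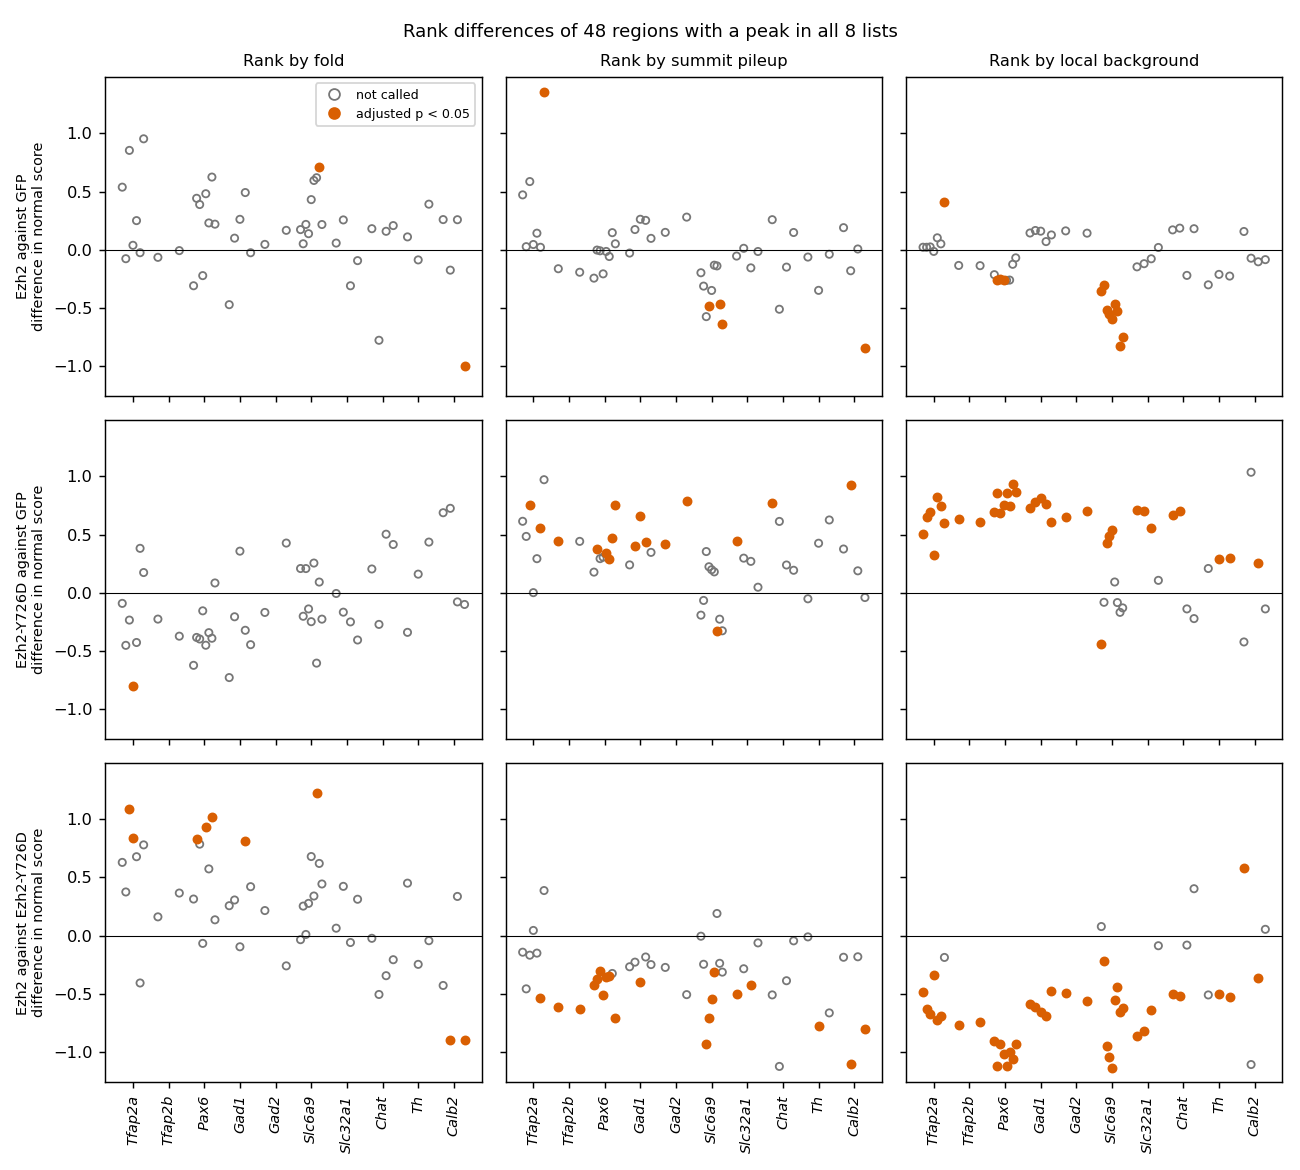
Difference in normal score (y axis) for each of the 48 regions, by gene, for 3 comparisons (rows) and 3 measures (columns). Filled points passed an adjusted p of 0.05. In the lower row the filled points by background and pileup lie mostly on the opposite side of 0 from those by fold. In the middle row most filled points by background and pileup lie above 0, and fold has 1 filled point, below 0.

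By percentile of fold, the strongest peak of a gene showed the same split. Ezh2-Y726D lay below GFP without overlap at Tfap2a, Tfap2b, Pax6, Gad1 and Slc32a1 and above it at Slc6a9 and Chat, 7 of 10 genes against 37.2% of all genes. Ezh2 lay above Ezh2-Y726D at Tfap2a, Pax6, Gad1, Slc32a1 and Th and below it at Chat (44.1% of all genes), and above GFP at Slc6a9 and Chat (21.8%). The Pax6 maximum was the lowest of the 10 genes in 7 of the 8 libraries (Tfap2b in Ezh2 replicate 3), at percentiles 22.1, 23.8 and 30.7 in GFP, 25.5, 28.1 and 26.7 in Ezh2, with 10.6 and 5.62 in Ezh2-Y726D. The maxima of Calb2, Th and Slc32a1 lay between percentiles 89.5 and 98.3 in all 8 libraries. Exact permutation p values for these differences were 0.1 or 0.2. Ranked by pileup instead, Ezh2-Y726D against GFP gave 7 genes higher and 0 lower, and Ezh2 against Ezh2-Y726D gave 0 higher and 8 lower. Ranked by -log10 p, Ezh2-Y726D against GFP gave 5 higher and 1 lower, in place of the 2 and 5 by fold. By the same rank, Ezh2 against Ezh2-Y726D gave 3 higher and 2 lower, in place of 5 and 1. Ranked by fold within 1000 bp of the genes, Ezh2-Y726D against GFP gave 0 higher and 5 lower. In that window Ezh2 against Ezh2-Y726D gave 5 higher and 0 lower.

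In a second list of 26 other amacrine genes the background again leaned higher in Ezh2-Y726D, by smaller shares. Of its 136 regions with a peak in all 8 libraries, Ezh2-Y726D was above GFP in background at 39 (28.7%, against 16.1% of all regions) and below it at 14 (10.3%, against 17.8%). It was above Ezh2 at 56 (41.2%) and below it at 10 (7.35%), against 20.0% each way. By pileup Ezh2-Y726D was above GFP at 11 and below it at 12 (8.09% and 8.82%, against 6.38% and 10.4% of all regions), so the lean was not seen there, and Ezh2 was below Ezh2-Y726D at 27 and above it at 13 (19.9% and 9.56%, against 9.79% and 12.1%). By fold, Ezh2 exceeded Ezh2-Y726D at 11 regions and fell short at 8 (8.09% and 5.88%), near the 7.0% and 6.96% of all regions, and 7 of the 8 lower regions were in Dab1. The largest fold differences were at Meis2, a transcription factor (chr2:115865109-115865872, percentiles 73.7, 76.1 and 66.1 in Ezh2 against 25.2 and 5.34 in Ezh2-Y726D), Ebf3, a transcription factor (chr7:137221390-137222343, 33.5, 31.3 and 6.93 in Ezh2 against 74.2, 72.3 and 74.9 in GFP), Gjd2, the connexin of electrical synapses, and Dab1, a marker of AII amacrine cells. This list holds Slc18a3, which lies inside the Chat locus and shares regions with it.

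Some marker lists of other cells also differed in background. In Ezh2-Y726D against GFP, 16.1% of all regions were higher and 17.8% lower, and in Ezh2 against GFP 7.83% and 8.63%. In these terms, 32 of 37 rod regions (86.5%) were below GFP in Ezh2-Y726D, as were 26 of 37 (70.3%) in Ezh2. Of 17 microglial regions, Ezh2-Y726D was below GFP at 9 (52.9%) and above it at 0, and of 20 T-cell regions 12 were lower and 3 higher (15.0%). In Ezh2 against GFP, 8 T-cell (40.0%) and 4 microglial regions (23.5%) were higher and none lower. Of 33 Müller glia regions, 16 were lower (48.5%) and 2 higher (6.06%) in Ezh2 than in GFP, and 2 were lower (6.06%) and 8 higher (24.2%) in Ezh2-Y726D. Of 17 RGC regions, Ezh2-Y726D was below GFP at 3 (17.6%) and above it at 4 (23.5%), near the share of all regions. In Ezh2 against GFP, 4 of the 17 RGC regions were higher (23.5%) and 0 lower. Of 67 bipolar cell regions, 23 were lower (34.3%) and 13 higher (19.4%) in Ezh2-Y726D than in GFP. In Ezh2 against GFP, 14 bipolar regions were lower (20.9%) and 2 higher (2.99%). In Ezh2 against Ezh2-Y726D, 20.0% of all regions were called each way in background. There, 25 of 33 Müller glia regions were lower (75.8%) and 3 higher, close to the 39 of 48 lower at the amacrine genes. By pileup, 11 were lower (33.3%) and 1 higher. Regions lower and higher in background were 7 and 4 of 37 for rods, 22 and 20 of 67 for bipolar cells and 2 and 4 of 17 for RGCs. They were 0 and 9 of 17 for microglia and 3 and 14 of 20 for T cells. All 10 amacrine genes had peaks in every library, and the part of the cell mixture in the differences was not tested.

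**Figure D5:**
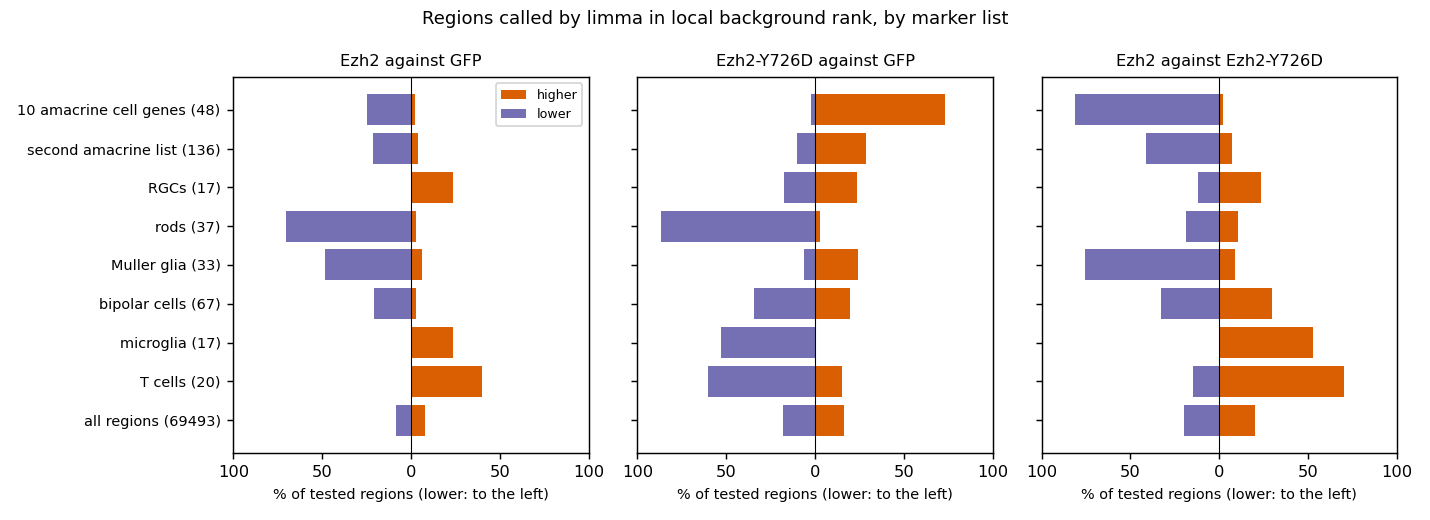
Share of the tested regions of each list (number in brackets) called higher (right) or lower (left) in local background rank by limma, with all regions at the bottom. In Ezh2-Y726D against GFP the 10 amacrine cell genes stand at 72.9% higher, and the rod, microglial and T-cell lists have more regions lower than higher.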

How the data were processed

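ATAC-seq was measured in 8 libraries (3 GFP, 3 Ezh2, 2 Ezh2-Y726D). The deposited files are 1 peak list per library on GRCm38. The submitters' processing notes name cutadapt, Bowtie2, SAMtools, Picard, MACS2 and deepTools without roles, and the parameters and versions are not given in the sources used here. Each list holds, as deposited by the authors, the fold of the summit over local background, a -log10 p-value and a -log10 q-value per peak. Fold is not a count, so no count test was run. Lists hold no signal where no peak was called.

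Within each list, regions were ranked by fold, and the normal scores of the ranks were fitted with limma 3.58.1 (R 4.3.3) over all regions with a peak in all 8 lists, with 3 group means and Benjamini-Hochberg adjustment at 0.05. Summit pileup and local background were solved from fold = (pileup + 1)/(background + 1) and the Poisson tail of the deposited -log10 p (scipy 1.17.1), and ranked and fitted in the same way. These fits were added after seeing the data. The scripts were tested on simulated data.

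The genes and lists were chosen with earlier results of these data known. All 10 genes were named, with the regions at starts, gained, lost or called by fold, and from the second list the 4 genes with the largest fold differences. Regions described by pileup or background alone were named after their values were seen. Alternatives were a window of 1000 bp, a -log10 q of at least 5, lists of equal length, a cover of at least 0.5 of the region, a rank by -log10 p or pileup, regions in at least 5 lists, a variance trend, a replicate block and leaving out each library. Replicates with the same number were not paired. No library pair shared more than 0.0388% identical peaks. The genome sequence beyond the listed promoters was not used here.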

Additional observations from a re-analysis of the deposited data

How the results depend on the processing

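Ranking by summit pileup gave a difference of the other sign from fold at 7 of 12 named results. For Ezh2 against GFP this was Slc6a9 near Ccdc24 (-0.47, limma adjusted p = 0.0375). For Ezh2-Y726D against GFP it was Tfap2a at 10675 bp (0.000500, adjusted p = 0.998), where the pileup was level. For Ezh2 against Ezh2-Y726D the 2 Pax6 starts had -0.38 and -0.35 (adjusted p = 0.0203 and 0.0215). Pax6 at 16432 bp had -0.33 (0.0657), Tfap2a at 16470 bp -0.17 (0.492) and Gad1 at 10263 bp -0.18 (0.143). Only Slc6a9 and the 2 Pax6 starts thus passed the test by pileup. Over 178 alternatives of these 12, 123 kept the call and 48 kept the direction only. Fold calls numbered 2, 1 and 9 in turn for Ezh2 against GFP, for the mutant against GFP and for Ezh2 against the mutant, Ezh2-Y726D. They were 5, 17 and 20 by pileup and 1, 2 and 3 by -log10 p. For Ezh2 against GFP they were 1 within 1000 bp and 1 with lists of equal length. For Ezh2-Y726D against GFP they were 2 with regions in at least 5 lists and 3 with a variance trend. With a replicate block (no pairing: the correlations of same-numbered deviations were at most 0.048) the fold calls were 1, 1 and 8, the pileup calls 1, 8 and 9 against 5, 17 and 20, and the background calls 11, 34 and 39 against 13, 36 and 40. On log2 values over the lowest background in place of ranks, the pileup calls were 8, 35 and 35 and the background calls 12, 38 and 43. By pileup the median of all regions there shifted by -0.02, 0.18 and -0.20 (log2), and the members' medians were -0.04, 0.55 and -0.55. Genes whose peak numbers did not overlap were 3 for Ezh2 against GFP with lists of equal length, and for Ezh2-Y726D against GFP 2 with that setting and 2 with -log10 q of at least 5. With a cover of 0.5, 1 region was lost between Ezh2 and GFP and 5 were gained or lost between Ezh2 and Ezh2-Y726D. Genes whose strongest-peak percentiles did not overlap between Ezh2 and GFP were 1 within 1000 bp, 1 with lists of equal length and 1 by -log10 p, and by -log10 p those between Ezh2-Y726D and GFP turned from 2 higher and 5 lower to 5 higher and 1 lower.

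Leaving out each library gave, in the same order of comparisons, ranges of 0 to 2, 0 to 1 and 1 to 10 fold calls, 0 to 4, 1 to 15 and 4 to 19 pileup calls, 9 to 12, 32 to 37 and 39 to 41 background calls, 0 to 3, 3 to 14 and 3 to 9 regions gained or lost, 0 to 3, 1 to 6 and 1 to 7 genes by peak number, and 2 to 4, 7 to 9 and 6 to 8 genes by strongest percentile. A library left alone in its group is assumed to vary like the others. The cause of these shifts was not tested. With 2 or 3 libraries a group, no exact test could go below 0.1.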
